A study of Mus musculus with 15 samples.

Results

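The Krüppel-like factors are a family of DNA-binding proteins, and the 10 members described here are *Klf2*, *Klf3*, *Klf4*, *Klf5*, *Klf6*, *Klf7*, *Klf9*, *Klf10*, *Klf13* and *Klf15*. They were taken by symbol from the 37310 Ensembl genes of the count table, and all 10 passed the filter on low counts that left 18008 genes for testing. Hippocampal RNA came from 2-month-old wild-type male C57BL/6J mice, with 5 libraries in each of 3 groups. FC mice received a single 1.5 mA foot shock of 2 s in a conditioning chamber, and their tissue was collected 30 min later. RT mice were conditioned likewise and returned to a 5 min retrieval test 24 h afterwards, with tissue collected 30 min after it. CC mice were controls that were handled, never conditioned, and dissected at the same clock time. All mice were handled beforehand and housed singly. By the methods of the study each library held polyA RNA from the paired hippocampi of a single mouse, while the series description gives a larger number of animals per group than of libraries. Whether a library holds RNA of more than a single mouse was not settled here. The libraries of every group carry the numbers 3, 5, 6, 7 and 8. Since the tissue was whole hippocampus, a level is an average over all its cell types.

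Members of the family share a run of C2H2 zinc fingers at the C terminus, with which they bind GC-rich elements and CACCC boxes in promoters and enhancers. Their other domains differ. *Klf2*, *Klf4*, *Klf5*, *Klf6* and *Klf7* belong to a group known mainly as activators, *Klf3* recruits the corepressor CtBP, and *Klf9*, *Klf10* and *Klf13* recruit the Sin3 corepressor. In endothelium, *Klf2* and *Klf4* are known as genes induced by blood flow through the kinases MEKK3, MEK5 and ERK5 and the MEF2 factors. In neurons, *Klf4* and *Klf9* are known to restrain axon growth and *Klf6* and *Klf7* to promote it, while *Klf9* is a classical target of thyroid hormone and glucocorticoids in hippocampal cells.

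The promoter of *Klf2* is shown because *Klf2* was the member that passed the test. It is the RefSeq sequence of chr8:72318812-72319111 on the plus strand of GRCm38.p6, from 250 bases before the annotated start of the gene to 50 bases after it, written 5′ to 3′ with 4 matches in capitals.
Klf2 promoter: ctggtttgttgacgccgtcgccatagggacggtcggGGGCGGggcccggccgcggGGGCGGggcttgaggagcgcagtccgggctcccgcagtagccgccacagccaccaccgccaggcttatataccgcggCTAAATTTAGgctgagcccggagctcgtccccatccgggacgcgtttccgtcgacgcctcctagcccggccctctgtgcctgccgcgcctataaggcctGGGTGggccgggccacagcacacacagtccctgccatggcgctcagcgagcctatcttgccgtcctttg
The capitals mark, in order, 2 copies of GGGCGG, the MEF2 site and GGGTG, which is CACCC on the other strand. The MEF2 site began 118 bases before the start of the gene. Searched on both strands, the MEF2 site occurred in 0.557% of 32851 promoters of the same length, GGGCGG in 35.7% and CACCC in 57.5%. Among the 8 members with a promoter in the reference table (*Klf5* and *Klf10* were the other two), a match to the MEF2 site was found in that of *Klf2* alone. The letters TGACGTCA (in 1.79% of all promoters), TGANTCA (7.81%), TATAAA (13.6%), AGAACA (19.0%) and the CArG box (1.63%) had no match in the *Klf2* window, and TGACG (20.8%), which is contained in TGACGTCA, had 1. A match is a description of the sequence and was not tested as a binding site.

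Levels differed widely within the family. Levels were compared as upper-quartile counts (reads scaled so that every library has the same upper quartile over the tested genes) per kilobase of exon, over all 15 libraries. *Klf9* averaged 1905 ± 495 and *Klf13* averaged 1898 ± 133 per kilobase (SD, n = 15). The next 5 members were lower than these in their means, and they were *Klf15* with 446 ± 38.2, *Klf3* with 428 ± 98.4, *Klf10* with 354 ± 51.9, *Klf6* with 346 ± 52.3 and *Klf2* with 286 ± 115. The lowest were *Klf7* with 108 ± 23.7, *Klf4* with 105 ± 17.1 and *Klf5* with 96.7 ± 20.8. Neighbours in this order differed by less than the larger of their SDs in 7 of 9 cases. The exceptions were the steps between *Klf13* and *Klf15*, of 11.0 SDs, and between *Klf2* and *Klf7*, of 1.55 SDs. The count of *Klf7* is uncertain, since 3202 of its 8133 exonic bases overlap exons of *Gm13748* and *Gm17427*. The overlap was found by position without regard to strand, and the sources do not state that counting used strand.

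**Figure D1:**
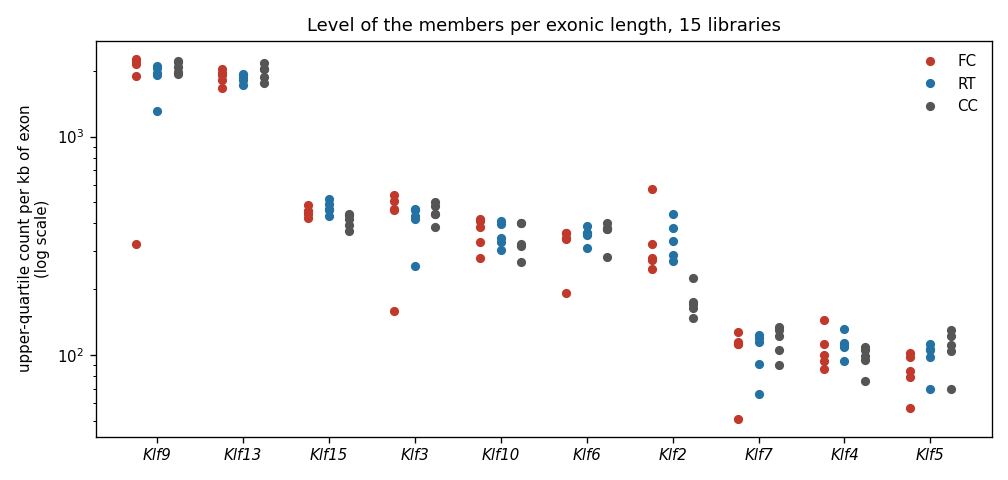
Upper-quartile counts per kilobase of exon (log axis) of the 10 members in the FC, RT and CC libraries, 1 point per library, with the members ordered by their mean over 15 libraries. *Klf9* and *Klf13* lie near 1900 per kilobase, and *Klf7*, *Klf4* and *Klf5* near 100.

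Libraries FC3 and RT3 stood apart from the rest for several members before any further adjustment. *Klf9* had an upper-quartile count of 1052 in FC3, against 6169 to 7421 in the other FC libraries, a log2 difference of -2.75 from their median that was below that of all but 2.7% of tested genes. Its count in RT3 was 4279, against 6235 to 6858 in the other RT libraries. *Klf3* was low in the same libraries, with 417 in FC3 against 1203 to 1410 in the other FC libraries and 670 in RT3 against 1101 to 1211 in the other RT libraries. *Klf7*, at 416, and *Klf6*, at 814, also had their lowest FC counts in FC3. *Klf2* went the other way and had the highest count of its group in both, 1060 in FC3 and 814 in RT3. *Klf15* lay close to its group, at log2 differences of 0.03 in FC3 and 0.17 in RT3. Over all tested genes the middle 90% of these differences ran from -2.04 to 1.38 in FC3 and from -0.92 to 0.76 in RT3. After adjustment with the 5 RUVs factors (estimates of unwanted variation made from differences between libraries of the same group), the differences of the 10 members fell between -0.07 and 0.05 in FC3 and between -0.08 and 0.17 in RT3. Those factors are fitted to remove such differences, so their absence afterwards is no separate finding.

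**Figure D2:**
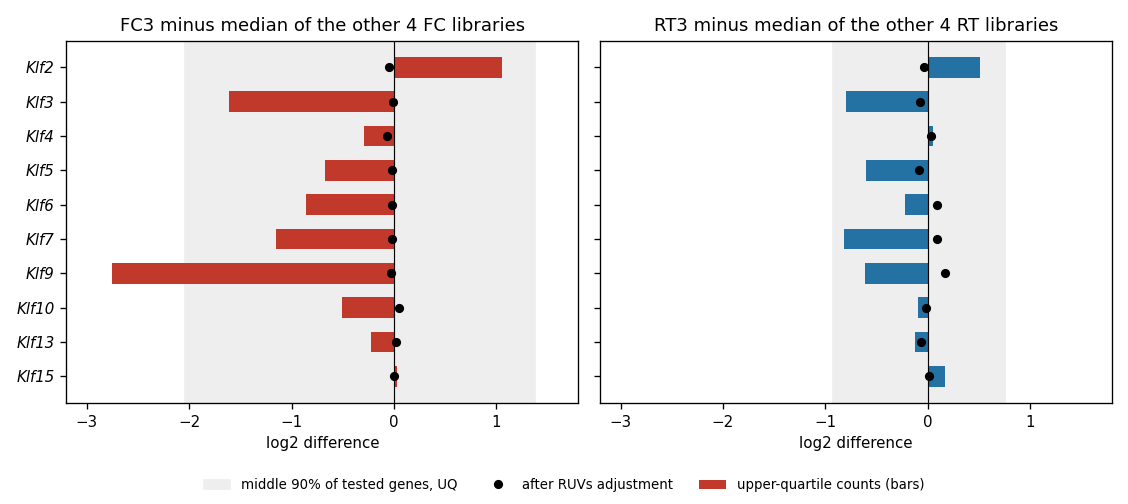
Log2 difference of library FC3 (left) and RT3 (right) from the median of the other 4 libraries of its group, for each member; bars are upper-quartile counts, black points are RUVs-adjusted counts, and the grey band holds the middle 90% of tested genes. In FC3, *Klf9* lies at -2.75, outside the band, and *Klf2* at 1.06.

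In FC mice, *Klf2*, the flow-responsive factor, was higher than in CC mice, and it was the only one of the 10 members to pass the FDR threshold of 0.01. *Klf2* (chromosome 8, 74842932 to 74845555 of mm9, plus strand, 3 exons) had upper-quartile counts of 1060, 594, 501, 515 and 457 in FC libraries 3, 5, 6, 7 and 8, against 317, 302, 417, 322 and 272 in the CC libraries of those numbers. Every FC library was above every CC library. On this scale *Klf2* averaged 625.4 ± 247.9 in FC and 326 ± 54.5 in CC (SD, n = 5 each). Its RUVs-adjusted counts were 470 to 627 in FC and 299 to 389 in CC. The log2 fold change in the edgeR likelihood ratio test with RUVs factors was 0.72 (SE 0.09, FDR 8.6e-13), with a 95% interval from 0.54 to 0.89. In the same comparison 1.32% of the 18008 tested genes were called higher and 0.922% lower, and 0.516% were higher with no overlap between the groups' upper-quartile counts. With upper-quartile factors alone on all 15 libraries the log2 fold change of *Klf2* was 0.94 (SE 0.22), and its FDR of 0.00888 just passed the threshold. The quasi-likelihood test of edgeR gave an FDR of 0.00036. Without FC3 and RT3, and with upper-quartile factors alone, the log2 fold change was 0.67 (SE 0.12, FDR 1.1e-05). In bulk tissue, a larger share of cells that express *Klf2* and more *Klf2* RNA per cell cannot be told apart.

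*Klf2* was also higher in RT than in CC mice. Its upper-quartile counts were 814, 497, 529, 617 and 706 in RT libraries 3, 5, 6, 7 and 8, and all 5 were above the highest CC library, at 417. The mean was 633 ± 130 in RT, against 326 ± 54.5 in CC (SD, n = 5 each). The log2 fold change was 0.82 (SE 0.09, FDR 3.7e-17, edgeR likelihood ratio test), with a 95% interval from 0.65 to 1.00, and *Klf2* was again the single member called. Of all tested genes 0.866% were called higher and 0.144% lower in this comparison, and 0.877% were higher with no overlap. With upper-quartile factors alone the log2 fold change was 0.96 (SE 0.22) and its FDR of 0.0108 just missed the threshold. Leaving out FC3 and RT3 gave 0.85 (SE 0.12, FDR 6.1e-10) with the same factors. The comparisons of FC and of RT with CC share the CC libraries, so their values for *Klf2* are not independent.

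No member differed between FC and RT at the threshold. *Klf2* had a log2 fold change of -0.11 (95% interval -0.27 to 0.06, FDR 0.72), and its FC and RT counts overlapped. Of all tested genes 0.0777% were called higher and 0.0444% lower in FC than in RT. At an unadjusted p under 0.05, 3 members were lower in FC than in RT, against 10.7% of all tested genes in either direction. They were *Klf5* (log2 fold change -0.23, 95% interval -0.39 to -0.06), *Klf6* (-0.14, -0.23 to -0.04) and *Klf9* (-0.14, -0.24 to -0.03), with edgeR FDRs of 0.23, 0.19 and 0.27. The sign of *Klf9* rested on FC3, since its log2 fold change in FC vs RT was 0.05 without that library, and without FC3 and RT3 it was 0.08 with RUVs factors and 0.09 with upper-quartile factors alone. Like-numbered FC and RT libraries deviated together, and a paired model with the number as a replicate block beside the RUVs factors called 0 members as well, while its calls over all genes numbered 82, against 22 without the block. DESeq2 and edgeR's quasi-likelihood test also called 0 members.

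**Figure D3:**
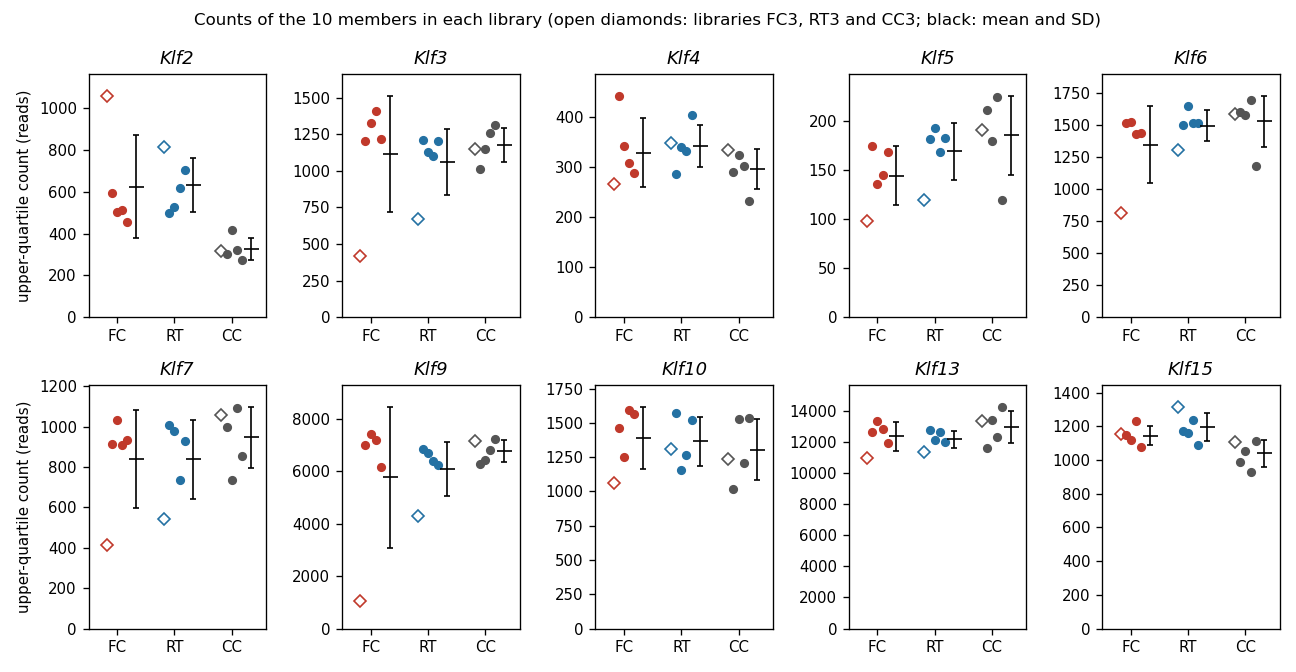
Upper-quartile counts (reads, linear axes from 0) of the 10 members in FC, RT and CC libraries; each point is a library, open diamonds are FC3, RT3 and CC3, and black bars give the mean and SD of 5 libraries. For *Klf2* all FC and RT points lie above the highest CC point, at 417 reads.

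*Klf4*, the paralogue that shares much of the endothelial role of *Klf2* and is best known as a reprogramming factor, did not pass the test. It lies on chromosome 4 from 55540013 to 55545347 of mm9, on the minus strand. Its upper-quartile counts were 265, 442, 342, 307 and 287 in FC libraries 3, 5, 6, 7 and 8, against 334, 290, 324, 302 and 232 in CC. In RT they were 348, 286, 340, 332 and 403. All 3 groups overlapped. The log2 fold change was 0.18 in FC vs CC (95% interval -0.01 to 0.36, FDR 0.33) and 0.21 in RT vs CC (95% interval 0.03 to 0.39, FDR 0.34), both with edgeR. The upper ends of these intervals lie below the lower ends of those of *Klf2*.

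Because *Klf2* and *Klf4* are known from endothelium, their counts were set against 12 endothelial markers in each library. Read depth cancels in this ratio, but differences that vary from gene to gene, such as those of FC3 and RT3, do not. *Klf2* had 36.0 ± 6.41 counts per 1000 endothelial marker counts in FC, against 19.6 ± 2.96 in CC (SD, n = 5 each; exact two-sided permutation p = 0.00794, adjusted over 4 tests 0.0159). The ratio was 38.3 ± 5.04 in RT, with the same p and adjusted p against CC, and 0.00794 is the smallest p that 5 against 5 libraries allow. The FC libraries ran from 29.0 to 45.5 and the RT libraries from 32.4 to 44.2, all above the highest CC library, at 24.1. These ratios reuse the *Klf2* counts tested above and share the CC libraries, so they are no independent result. Without FC3 and RT3 the FC mean was 33.6 ± 4.13 (SD, n = 4) and that of RT 37.4 ± 5.35 (SD, n = 4), again with no overlap with CC. *Klf4* gave 20.2 ± 6.13 in FC and 20.9 ± 2.89 in RT, against 17.9 ± 2.80 in CC (SD, n = 5 each; exact two-sided permutation p = 0.476 for FC and 0.143 for RT). The groups overlapped.

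**Figure D4:**
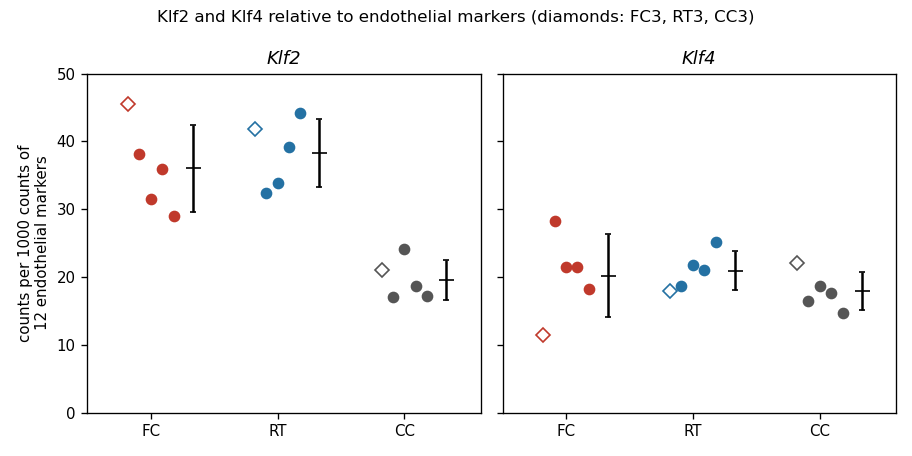
Counts of *Klf2* (left) and *Klf4* (right) per 1000 counts of 12 endothelial markers in FC, RT and CC libraries, 1 point per library, with open diamonds for FC3, RT3 and CC3 and black bars for the mean and SD of 5. For *Klf2* the lowest FC and RT points, at 29.0 and 32.4, lie above the highest CC point, at 24.1.

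The endothelial markers themselves gave few calls. All 12 were tested, none was at 0 throughout, 0 were called higher and 1 lower in FC vs CC (*Tie1*, an endothelial receptor, log2 fold change -0.24, FDR 0.00021, edgeR), and 0 passed in RT vs CC. *Cldn5* had the largest change of the list in FC vs CC, at -0.265 (edgeR FDR 0.018), which missed the threshold. The median log2 fold change of the 12 was -0.10 in FC vs CC and -0.06 in RT vs CC, against -0.014 and -0.001 over all tested genes. Their summed upper-quartile count was 14305 to 23286 in FC and 15318 to 19442 in RT, against 15138 to 17687 in CC, with the maxima in FC3 and RT3. These libraries stood apart in the marker sums of many cell types. The sums for mural cells, microglia, astrocytes, oligodendrocytes, interneurons and blood were also the highest of their group in FC3 and in RT3, and that for pyramidal neurons the lowest. Oligodendrocyte markers summed to 418162 in FC3 and 369566 in RT3, against 260712 to 275240 in CC, and pyramidal neuron markers to 270882 in FC3 and 312391 in RT3, against 341124 to 408973 in CC. Markers within a list did not all move alike. In FC, the microglial marker *C1qa* reached 5874 reads, against 1853 to 2088 in CC, while *P2ry12* fell to 509, against 1559 to 1798. A sum is therefore not a measure of the share of a cell type. The part that the shifts in FC3 and RT3 have in the values of the members was not tested.

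Choroid plexus markers differed between the groups, with 7 of 8 called higher in FC vs CC and 1 of 8 in RT vs CC. Their summed count was 3902 to 52483 in FC and 2516 to 14730 in RT, against 1883 to 2587 in CC. In FC libraries 3, 5, 6, 7 and 8 the sums were 7378, 52483, 3902, 6665 and 22678. The *Klf2* counts of these libraries were 1060, 594, 501, 515 and 457. In the RT libraries of the same numbers the sums were 7177, 4706, 2516, 3845 and 14730. Their *Klf2* counts were 814, 497, 529, 617 and 706. A relation between these sums and *Klf2* was not tested. The lists for pyramidal neurons (7 genes), dentate gyrus (5) and interneurons (6) were expressed in all groups with no marker at 0 throughout and no gene called in any comparison.

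The remaining activators of the group showed no call. *Klf5*, a factor of proliferating epithelium (chromosome 14, 99697910 to 99712624 of mm9, plus strand), had the fewest reads of the 10 members. Per kilobase it did not differ from *Klf4* beyond their spread. Its upper-quartile counts were 98, 175, 136, 145 and 168 in FC libraries 3, 5, 6, 7 and 8, against 191, 211, 180, 225 and 120 in CC. The RT counts of *Klf5* were 120, 182, 193, 168 and 183. The groups overlapped, and CC8 was the lowest CC library. *Klf5* had a log2 fold change of -0.24 in FC vs CC (95% interval -0.41 to -0.07, FDR 0.081) and -0.01 in RT vs CC (-0.18 to 0.15, FDR 0.97), with edgeR. Without CC8, the FC value became -0.39 (SE 0.08) with an FDR of 0.00035, which passes the threshold, and in none of the other 29 alternatives did it pass. Calls over all genes also rose without CC8, to 653 from 403.

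*Klf6*, an injury- and growth-associated factor (chromosome 13, 5860735 to 5869639 of mm9, plus strand), had 814 to 1525 reads in FC and 1305 to 1649 in RT, against 1184 to 1699 in CC. *Klf6* had a log2 fold change of -0.09 in FC vs CC (95% interval -0.19 to 0.01, FDR 0.35) and 0.05 in RT vs CC (-0.05 to 0.14, FDR 0.80). The lowest FC count was in FC3 and the lowest CC count in CC8. Without CC8 the FC value of *Klf6* was -0.17 (SE 0.04, FDR 0.0023), which passes the edgeR threshold, again the only alternative of 30 in which it did. That fit called 653 genes in all, against 403. *Klf7* (chromosome 1, 64076021 to 64168856 of mm9, minus strand) had 416 to 1035 reads in FC and 541 to 1007 in RT, against 734 to 1092 in CC. Its log2 fold change was -0.04 in both comparisons, with intervals from -0.14 to 0.07 in FC vs CC and from -0.15 to 0.07 in RT vs CC.

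*Klf3*, the CtBP-binding repressor (chromosome 5, 65194628 to 65221368 of mm9, plus strand), was level across the groups apart from its low values in FC3 and RT3. Its upper-quartile counts had medians of 1216 in FC and 1127 in RT, against 1153 in CC. *Klf3* had a log2 fold change of 0.04 in FC vs CC (95% interval -0.06 to 0.14, FDR 0.79) and -0.04 in RT vs CC (-0.15 to 0.06, FDR 0.83), with edgeR.

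None of the Sin3-binding members was called. *Klf9*, the hormone-responsive member (chromosome 19, 23215716 to 23241401 of mm9, plus strand), had upper-quartile counts of 1052, 7001, 7421, 7212 and 6169 in FC libraries 3, 5, 6, 7 and 8, against 7150, 6295, 6451, 6820 and 7223 in CC. The RT counts of *Klf9* were 4279, 6858, 6693, 6377 and 6235. Apart from FC3 and RT3, the FC and RT libraries ran from 6169 to 7421, around the CC range of 6295 to 7223. RUVs-adjusted, *Klf9* had 5229 to 5850 reads in FC and 5632 to 6523 in RT, against 5775 to 6334 in CC. Its log2 fold change was -0.14 in FC vs CC (95% interval -0.25 to -0.04, FDR 0.11) and -0.01 in RT vs CC (-0.11 to 0.10, FDR 0.98), with edgeR. In FC vs CC its value was -0.02 without FC3, and without FC3 and RT3 it turned to 0.04 both with RUVs factors and with upper-quartile factors alone. In RT vs CC its sign turned under 16 of 30 alternatives.

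*Klf13*, a factor studied in T lymphocytes and in the heart (chromosome 7, 71031237 to 71083801 of mm9, minus strand), had the highest counts of the family before length is taken into account. It had 10980 to 13388 reads in FC and 11388 to 12768 in RT, against 11620 to 14253 in CC. Its coefficient of variation was 7.50% in FC, 4.52% in RT and 7.94% in CC, and that of *Klf15* was 5.08%, 7.05% and 7.56% in the same groups. Both stayed below 10% in every group. *Klf13* had a log2 fold change of -0.04 in FC vs CC (95% interval -0.13 to 0.05) and -0.08 in RT vs CC (-0.17 to 0.01). *Klf10*, first described as a gene induced by TGF-beta (chromosome 15, 38221219 to 38230464 of mm9, minus strand), had 1061 to 1597 reads in FC and 1158 to 1576 in RT, against 1018 to 1534 in CC. Its log2 fold change was 0.13 in FC vs CC (-0.04 to 0.30, FDR 0.48) and 0.06 in RT vs CC (-0.11 to 0.22, FDR 0.89), with edgeR.

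*Klf15*, a glucocorticoid target that governs amino acid and glucose metabolism in liver and muscle, came closest to the threshold after *Klf2* in RT vs CC. It lies on chromosome 6 from 90412570 to 90425232 of mm9, on the plus strand. Its upper-quartile counts were 1314, 1172, 1162, 1240 and 1092 in RT libraries 3, 5, 6, 7 and 8, and 1153, 1147, 1119, 1234 and 1075 in FC, against 1110, 990, 1055, 931 and 1112 in CC. In RT 4 of 5 libraries and in FC 4 of 5 were above the highest CC library, at 1112. The log2 fold change was 0.17 in RT vs CC (SE 0.05, 95% interval 0.08 to 0.26, FDR 0.019) and 0.13 in FC vs CC (SE 0.05, 95% interval 0.04 to 0.22, FDR 0.090), both over the edgeR threshold of 0.01. Without CC3 both would pass, with 0.21 (FDR 0.00062) for RT and 0.17 (FDR 0.0060) for FC. In RT vs CC it would also pass without CC8 (0.19, FDR 0.0074) and without RT8 (0.21, FDR 0.0062). Other settings moved *Klf15* in RT vs CC away from the threshold, with FDRs of 1.00 with upper-quartile factors alone, 0.23 with RUVg, 0.18 with DESeq2, 0.18 with 1 RUVs factor and 0.086 with edgeR's quasi-likelihood test. Its log2 fold change stayed positive in these fits. *Klf15* was called in 7 of 30 alternatives in RT vs CC and in 1 of 30 in FC vs CC.

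**Figure D5:**
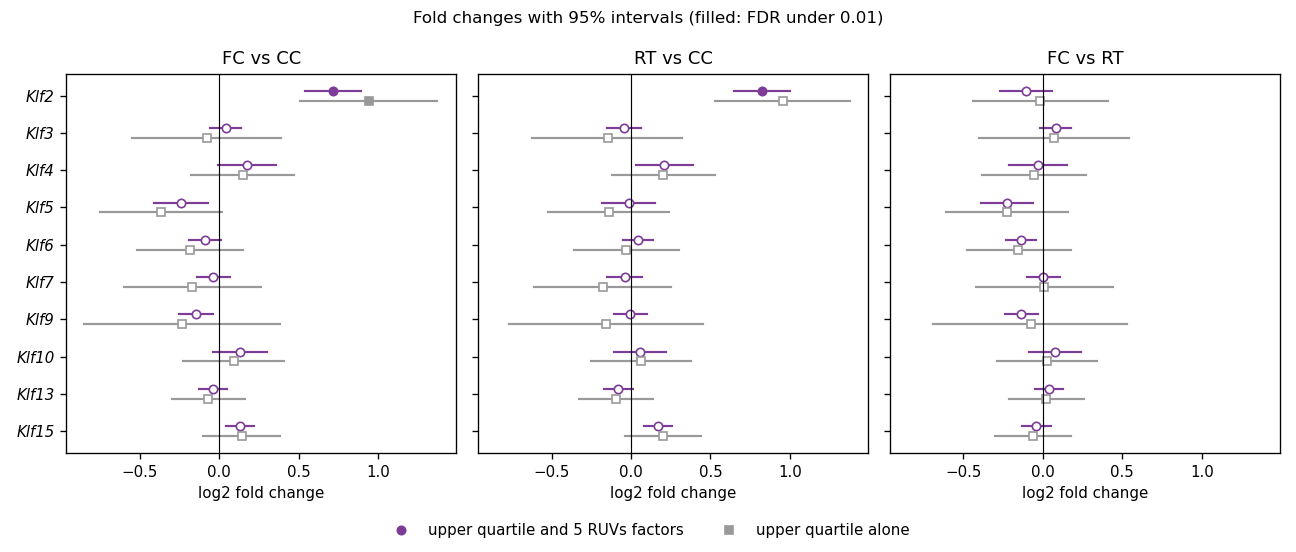
Log2 fold changes of the 10 members in FC vs CC, RT vs CC and FC vs RT, with 95% intervals; circles come from the edgeR model with upper-quartile factors and 5 RUVs factors, squares from upper-quartile factors alone, and filled symbols have an FDR under 0.01. *Klf2* at 0.72 and 0.82 is the only filled circle, and the intervals without RUVs factors are wider.

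Members lay on both sides of 0 in each comparison. *Klf2*, *Klf4*, *Klf10* and *Klf15* had positive values both in FC vs CC and in RT vs CC, of which those of *Klf2* passed the test. The median log2 fold change of the 10 was 0.002 in FC vs CC, against -0.014 over all tested genes, with 5 members above 0. In RT vs CC the median was 0.019, against -0.001 over all genes, again with 5 above 0. Unadjusted p-values under 0.05 were found for 4 members in FC vs CC, against 16.5% of all tested genes, and for 3 in RT vs CC, against 11.1%.

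Genes of the pathways around the family gave few calls. Among 15 tested genes listed as upstream of *Klf2* and *Klf4*, 1 was higher in FC vs CC and 1 lower in RT vs CC. Besides kinases and MEF2 factors, the list held *Hdac5*, *Hdac7*, *Krit1*, *Ccm2*, *Pdcd10*, *Heg1*, *Srf* and *Creb1*. The genes of MEKK3 (*Map3k3*), MEK5 (*Map2k5*) and ERK5 (*Mapk7*) were not called. They had -0.02, -0.02 and 0.15 in FC vs CC (edgeR FDRs 0.86, 0.82 and 0.0498), and 0.01, -0.02 and 0.12 in RT vs CC. *Map3k2*, which encodes the kinase MEKK2, had a log2 fold change of 0.22 in FC vs CC (SE 0.04, FDR 2.2e-05) and 0.12 in RT vs CC (FDR 0.15), while *Mef2c*, a MEF2 transcription factor, had -0.18 in RT vs CC (SE 0.04, FDR 0.0018) and -0.14 in FC vs CC (FDR 0.022). Both genes had upper-quartile counts that overlapped between groups, at 1034 to 1678 for *Map3k2* in FC against 1178 to 1443 in CC, and at 4660 to 6060 for *Mef2c* in RT against 5272 to 7500 in CC. With upper-quartile factors alone neither passed, at FDRs of 0.97 for *Map3k2* and 1.00 for *Mef2c*. *Mef2c* also missed the threshold in RT vs CC without RT5 (FDR 0.074), CC3 (0.030), CC5 (0.055) or CC6 (0.015). Over 30 alternatives, *Map3k2* lost its call in FC vs CC in 5 and *Mef2c* its call in RT vs CC in 11. The median log2 fold change of this list, whose genes differ in role, was -0.018 in FC vs CC and 0.005 in RT vs CC.

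Among 10 tested genes regulated by KLF2 or KLF4 in cultured endothelium, 0 were higher and 1 lower in FC vs CC, and 0 were called in RT vs CC. The one was *Edn1*, encoding the vasoconstrictor endothelin 1, with 55 to 77 reads in FC against 59 to 156 in CC and a log2 fold change of -0.67 (SE 0.12, FDR 1.1e-05). In RT it had 78 to 106 reads and a log2 fold change of -0.32 (FDR 0.18), which became -0.54 (FDR 0.00028) without CC8. With upper-quartile factors alone its FC value was -0.71 (FDR 0.26), and with edgeR's quasi-likelihood test and DESeq2 the FDRs were 0.031 and 0.033, so this call rests on the model. The list's median was -0.057 in FC vs CC and -0.002 in RT vs CC.

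Of 16 tested genes of steroid and thyroid hormone signalling, a list that bears on *Klf9* and *Klf15*, 5 were higher in FC vs CC and 6 in RT vs CC, and none was lower. Over all tested genes 1.32% and 0.866% were called higher in these comparisons, and the list was chosen with earlier results of these data known. *Dusp1*, a MAP kinase phosphatase that neuronal activity also induces, had 939 to 1459 reads in FC and 1213 to 1357 in RT, against 640 to 715 in CC, with no overlap. Its log2 fold change was 0.90 in FC vs CC (SE 0.09, FDR 2.9e-19) and 0.92 in RT vs CC (SE 0.09, FDR 2.8e-20). *Ddit4*, an inhibitor of mTORC1, had log2 fold changes of 0.42 in FC vs CC (SE 0.05, FDR 1.0e-13) and 0.43 in RT vs CC (SE 0.05, FDR 1.2e-14). *Sgk1*, a kinase induced by corticosteroids, had 0.32 in FC vs CC (SE 0.05, FDR 2.3e-08) and 0.37 in RT vs CC (SE 0.05, FDR 7.3e-11). *Ddit4* and *Sgk1* did not pass with upper-quartile factors alone, with FDRs of 0.49 and 0.97 in FC vs CC and 0.71 and 1.00 in RT vs CC. *Fkbp5*, *Zbtb16*, *Sult1a1* and *Pdk4* of the same list were called in neither comparison. Their edgeR FDRs were 0.28 to 0.93 in FC vs CC and 0.74 to 0.96 in RT vs CC. The list's median was 0.047 in FC vs CC and 0.071 in RT vs CC. Whether hormone signalling differed between the groups was not tested.

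Cofactors and the TGF-beta pathway were nearly still. Of 13 tested cofactor genes, 0 were called in FC vs CC, where edgeR gave *Sap30* an FDR of 0.012, and 1 in RT vs CC. That was *Sap30*, a subunit of the Sin3 corepressor complex, with a log2 fold change of 0.32 (SE 0.07, FDR 0.0025) and counts of 272 to 427 in RT against 204 to 275 in CC. Its FDR in RT vs CC was 0.012 without RT5, 0.024 without RT6 and 0.019 without CC5, and 1.00 with upper-quartile factors alone. In all, *Sap30* lost this call in 11 of 30 alternatives. Of 14 tested genes of the TGF-beta pathway, 0 were called in FC vs CC and 1 in RT vs CC, *Id1*, an inhibitor of DNA binding, at -0.31 (SE 0.06, FDR 2.0e-05). *Id1* had 425 to 848 reads in RT against 556 to 661 in CC, and upper-quartile factors alone gave -0.15 (FDR 1.00). The call of *Id1* was lost in 5 of 30 alternatives.

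The genes whose pattern over the libraries was most like that of *Klf2* were sought among 13747 others with a mean upper-quartile count of at least 100. On RUVs-adjusted counts over 15 libraries they were *Tnfrsf25* (Pearson r 0.964, Spearman rho 0.818), *Tm6sf2* (0.954, 0.886), *Mfap3* (0.949, 0.954), *Btg2* (0.948, 0.721) and *Frat2* (0.943, 0.807). On upper-quartile counts over the 13 libraries other than FC3 and RT3 they were *Ier2* (0.921, 0.819), *Coq10b* (0.917, 0.830), *Apold1* (0.912, 0.753), *Cyr61* (0.904, 0.780) and *Fbxl14* (0.902, 0.841). The lists share no gene. The libraries fall into 3 groups, so these values contain the difference between groups, and they are given as a description. The log2 fold changes of the 10 genes ranged from 0.15 to 1.06 in FC vs CC and from 0.15 to 1.05 in RT vs CC. Among the 10 members, *Klf4* and *Klf15* had the highest r with *Klf2*, at 0.78 and 0.81 on the adjusted counts and at 0.70 and 0.59 on the 13 libraries. These values contain the difference between groups too.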

How the data were processed

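PolyA RNA was sequenced as paired reads on an Illumina HiSeq 2000. The authors mapped the reads to mm9 with GSNAP, kept unique and concordant pairs, and deposited raw counts per gene of Ensembl release 65 made with HTSeq 0.6.1, with no normalisation. Totals were 35731428 to 62555543 reads per library. Each read is not an independent molecule, so counts bear sampling and amplification error.

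Of 28657 genes with any read, 18008 passed the filter of over 10 reads in over 5 libraries. The study's design was refitted in R 4.3.3 with edgeR 4.0.16: 1 negative binomial model of all 15 libraries, upper-quartile factors, 5 RUVs factors from the study's 625 negative control genes, a likelihood ratio test and an FDR (Benjamini-Hochberg adjusted p) threshold of 0.01. RUVs was rewritten from its algorithm. SE is the log2 fold change over the root of the test statistic. Printed RUVs-adjusted counts use centred factors, which keep a gene's mean log count. The model was tested on simulated data. Alternatives included DESeq2 1.42.0.

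Deviations of FC and RT libraries from their group means correlated at 0.254 to 0.871 for equal numbers. For different numbers the median was 0.142 and the maximum 0.512, so the ranges overlapped. FC3 and RT3 were included. With CC they did not pair. No libraries of a group agreed within sampling noise. Positions and exonic lengths are from the annotation of that release, promoters from RefSeq (GRCm38.p6).

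All 10 members are named. From each related list the text names up to 3 genes past the threshold with the smallest p, and the 5 genes most like each called member. *Tie1*, *Cldn5*, *C1qa* and *P2ry12* were named after their values were seen, as were the uncalled genes named from the upstream and hormone lists. Members and lists were chosen with earlier results of these data known. Zinc finger identity was not analysed here.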

Additional observations from a re-analysis of the deposited data

Results flagged for a closer look

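In 36 groups of 5 libraries (the upper-quartile counts of the 10 members and the endothelial ratios of *Klf2* and *Klf4*), the gap of the highest or lowest library to its neighbour, over the group's range, was set against a critical value of 0.71, which chance passes in about 1 group in 20. It was passed 8 times, 7 of them in FC3 or RT3. In FC3 these were *Klf2* at 1060 reads (others 457 to 594), *Klf3* at 417 (others 1203 to 1410), *Klf6* at 814 (others 1436 to 1525), *Klf7* at 416 (others 911 to 1035) and *Klf9* at 1052 (others 6169 to 7421). In RT3 they were *Klf3* at 670 (others 1101 to 1211) and *Klf9* at 4279 (others 6235 to 6858). The last was *Klf6* at 1184 in CC8 (others 1583 to 1699). The members of a library are not independent of each other, and neither endothelial ratio was among the 8.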

How the results depend on the processing

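*Klf2* kept its call in FC vs CC under all 30 alternatives, with log2 fold changes of 0.668 to 0.94 over the settings and 0.652 to 0.789 when each library was left out. The alternative of FDR 0.05 is the main fit with a looser threshold, so it could lose no call and change no value. Fits without an RT library kept every FC and CC library. In RT vs CC it kept its call in 29 of 30, with 0.778 to 0.956 and 0.746 to 0.915. The exception was upper-quartile factors alone, where it was 0.956 at an FDR of 0.0108 and 0 members were called. A replicate block gave *Klf2* 0.88 in FC vs CC and 0.934 in RT vs CC without RUVs factors, and 0.683 and 0.778 with them. In RT vs CC, 2 members (*Klf2* and *Klf15*) were called with all tested genes as RUVs controls, with the filter raised to 50 reads, at an FDR of 0.05 and with the replicate block beside RUVs factors. Calls over all genes in those fits numbered 210 to 311, against 182. Leaving out libraries gave 1 to 3 members in FC vs CC, 1 to 2 in RT vs CC and 0 in FC vs RT. In FC vs CC, 3 members were called without CC8 and 2 without CC3. Calls over all genes in these fits were 653 and 430, against 403. In RT vs CC, the fits with 2 members, without RT8, CC3 or CC8, called 198, 179 and 276 genes, against 182. The differences of the *Klf2* endothelial ratio lay between 14.03 and 18.15 for FC and between 17.23 and 20.17 for RT when a library was left out, with no change of call. Calls over all genes in FC vs CC ranged from 34 (upper-quartile factors alone) to 815 (FDR 0.05), against 403, and quasi-likelihood made 98. Of 900 member values 55 changed sign, all uncalled in both fits. Without FC3 and RT3 but with RUVs factors, a fit chosen after seeing the data, *Klf2* had 0.713 in FC vs CC and 0.839 in RT vs CC. The causes were not tested. The RUVs factors leave 7 residual degrees of freedom, and with the block 3. Counts limit the precision of *Klf5*, which had 98 reads in its lowest library.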

Other observations

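The 7 other Krüppel-like factors in the table were not called. *Klf1* reached at most 12 reads and *Klf17* at most 1 read in any library, and neither passed the filter. *Klf12* had 55 to 744 reads in FC and 138 to 669 in RT, against 327 to 678 in CC, and a log2 fold change of 0.20 in FC vs CC (edgeR FDR 0.019) and 0.13 in RT vs CC (FDR 0.36). *Klf16*, the most abundant of them in counts, had 2783 to 3889 reads in FC and 2811 to 3382 in RT, against 2689 to 3297 in CC, with log2 fold changes of -0.02 and -0.01. *Klf8*, *Klf11* and *Klf14* had FDRs of 0.71 to 0.96 in FC vs CC. Of 9 Sp factors, which share the zinc finger fold, 8 were tested and 0 were called.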
